A study of Mus musculus with 6 samples.

Results

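The laminins, nidogens and large proteoglycans of the basement membrane were examined in IL-11+ and IL-11- fibroblasts of the inflamed mouse colon. The genes were taken by symbol and comprise 3 laminin α chains (*Lama2*, *Lama4* and *Lama5*), 2 β chains (*Lamb1* and *Lamb2*), the γ chain *Lamc1*, the nidogens *Nid1* and *Nid2*, perlecan (*Hspg2*) and agrin (*Agrn*). They are 10 of the 20327 gene symbols with tag counts, and all 10 were among the 9334 genes tested, which had 10 tags or more in at least 3 of 6 libraries. Both groups came from C57BL/6 *Il11-Egfp* reporter mice, aged 9 to 15 weeks, that drank 1.5% dextran sulfate sodium (DSS, a chemical that injures the colonic epithelium) for 5 days and were analyzed on day 7. IL-11+ fibroblasts are the EGFP-Positive cells and IL-11- fibroblasts the EGFP-Negative cells that lacked Ter119, CD45, CD31 and EpCAM, the surface proteins of erythroid cells, leukocytes, endothelium and epithelium (n = 3 libraries per group). The reporter is a transgene that carries *Egfp* inside *Il11* on an artificial chromosome, so EGFP reports activity of the transgene, and the gate removes cells without selecting for a fibroblast protein. Libraries were made by 5′Tag-seq, which reads tags toward the 5′ side of polyA RNA, and held 1057170, 1078179 and 1169817 tags across the IL-11- libraries and 1046538, 1022851 and 1049048 across the IL-11+ libraries. Values of single libraries follow the order of replicates 1, 2 and 3 throughout.

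Basement membranes are thin sheets of matrix that underlie epithelium and endothelium and wrap muscle, fat and nerve cells. A laminin is a trimer of an α, a β and a γ chain that self-assembles on the cell surface through integrins and dystroglycan, and nidogens and perlecan join the laminin network to a network of type IV collagen. In the intestine much of this matrix is made by mesenchymal cells under the epithelium, and α chain use differs between the epithelium, smooth muscle and vessels.

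*Il11* itself, the gene behind the sort, had 28, 51 and 89 tags across the IL-11- libraries and 1357, 732 and 2658 across the IL-11+ libraries. The labels and this gene went the same way in all 6 libraries. Because the transgene also carries *Il11* sequence, some of these tags may come from the transgene itself, and their origin was not tested. *Pdgfra*, a receptor of colonic fibroblasts, stood at 625 ± 82.1 normalized CPM (tags scaled to a common library size, here and below mean ± SD, n = 3) for IL-11- and 728 ± 75.4 for IL-11+ fibroblasts. *Epcam* and *Pecam1* (CD31) had 0 or 1 tag in each library, and *Ptprc* (CD45) had 0 to 7.

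Among all 9334 tested genes, 3.44% were called higher and 6.37% lower in IL-11+ fibroblasts, a call being a Benjamini-Hochberg adjusted p under 0.05 in the quasi-likelihood test of edgeR together with a fold change over 2. Of the 10 basement membrane genes, *Lamb1* was called higher and *Lamb2* was called lower. By the adjusted p alone, which 6.84% of tested genes passed as higher and 8.7% as lower, *Lama4* and *Lamc1* joined *Lamb1* as higher, and *Lamb2* stayed the 1 lower gene. The groups did not overlap for *Lamb1*, *Lamc1* and *Lama4*, which were higher, and for *Lamb2*, which was lower, whereas 14.5% of all tested genes were higher and 16.7% lower without overlap. Log2 fold changes of the 10 genes had a median of 0.07, and those of all tested genes -0.01. Tags of the 10 genes together summed to 2218, 2187 and 1988 normalized CPM across the IL-11- libraries and to 3199, 3114 and 2744 across the IL-11+ libraries.

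**Figure D1:**
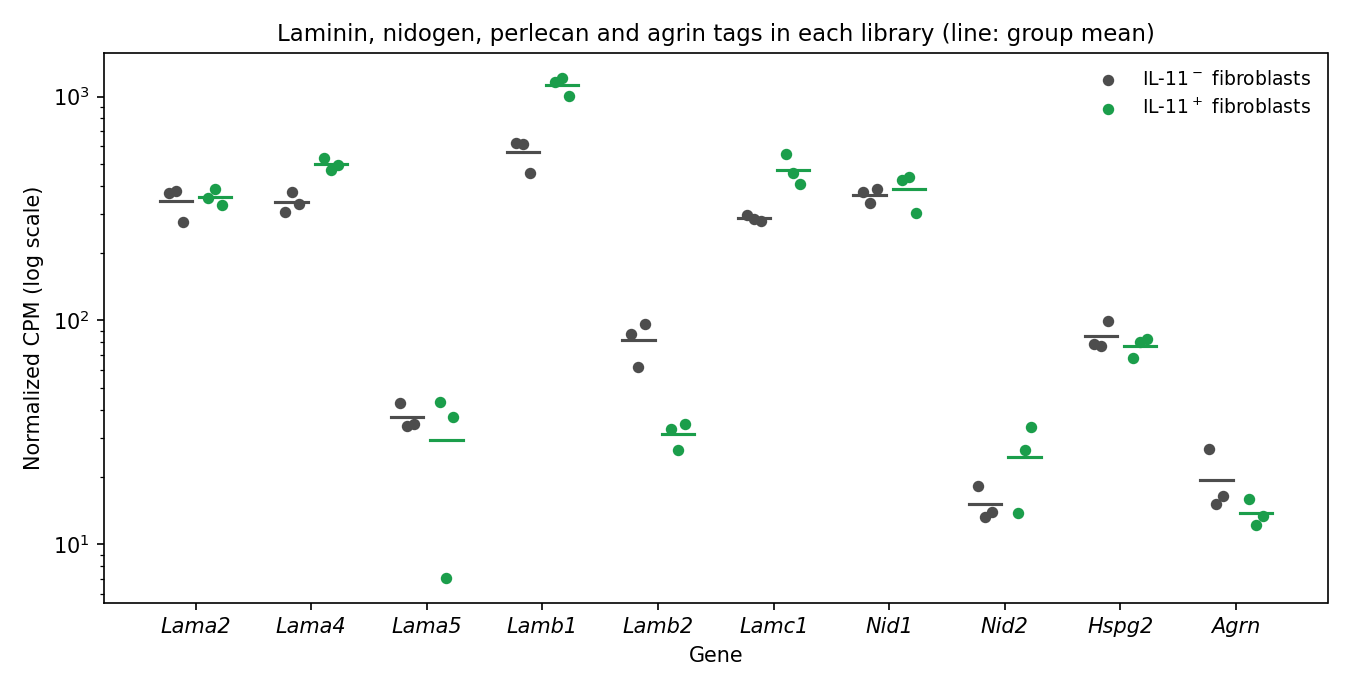
Normalized CPM (log scale) of the 10 genes in each library, with a dot for each of 3 libraries per group and a line at the group mean. *Lamb1*, *Lamc1* and *Lama4* are higher and *Lamb2* is lower in IL-11+ fibroblasts without overlap, and *Lama5* has 1 low library, IL-11+ replicate 2, with 7 tags.

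Markers of other stromal cells differed between the same libraries. Of 14 pericyte and smooth muscle markers, 11 were called lower in IL-11+ fibroblasts and none higher, with *Cnn1* and *Notch3* passing the filter through the IL-11- libraries alone, and of 9 fibroblast markers 2 were called higher (*Col3a1* and *Pdpn*) and none lower, with log2 fold changes of 0.67, 0.42 and -0.64 for the abundant *Dcn*, *Col1a2* and *Lum*; these 9 summed to 22122, 22107 and 24635 normalized CPM across the IL-11- libraries and, without overlap, to 42227, 33957 and 30313 across the IL-11+ libraries, and their part in the values of the 10 genes was not tested. The summed level of the 14 genes was 5250.5, 5502 and 6128 normalized CPM across the IL-11- libraries, against 1172, 1058 and 1138 across the IL-11+ libraries. The most abundant, *Rgs5* of pericytes, had 1951, 1700 and 1800 tags across the IL-11- libraries and 186, 174 and 206 across the IL-11+ libraries, and *Cnn1*, a contractile protein of smooth muscle, was near 0 in the latter, with 0, 1 and 5 tags against 67, 95 and 130. Log2 fold changes of the other 9 called were -4.55 for *Myh11*, -4.27 for *Myl9*, -4.04 for *Actg2*, -3.94 for *Notch3*, -3.80 for *Acta2*, -3.62 for *Tagln*, -3.59 for *Des*, -2.95 for *Mcam* and -2.32 for *Cspg4*, whereas the 3 not called did not all go that way, with 0.66 for *Abcc9*, 0.71 for *Kcnj8* and -0.38 for *Pdgfrb*. In such bulk libraries, fewer cells of a type and less RNA per cell cannot be told apart. Markers of glia were lower for 3 of 3 tested genes (*Gfap* and *Mbp*, which reached 10 tags in the IL-11- libraries alone, among them), with sums of 138, 107 and 143 normalized CPM against 21.2, 15.2 and 17.2 and 0 tags of *Sox10* and *S100b* in every IL-11+ library; those of interstitial cells of Cajal were lower for 3 of 3 (*Ano1*, *Etv1* and *Kit*, the last with 10 tags only in IL-11- libraries), with sums of 271, 168 and 258 against 21.2, 20.3 and 50.5. The endothelial list, led by *Tek*, summed to 49.7, 41.5 and 56.7 against 22.3, 14.2 and 12.4, and the leukocyte list, led by *Cd74*, to 32.5, 50.9 and 32.8 against 22.3, 19.3 and 18.1. *Tek* and *Cd74*, the 1 tested gene of each, were called lower, but *Tek* not without IL-11+ replicate 2 (edgeR adjusted p = 0.0511) and *Cd74* not without either replicate 1 or 2 of either group (edgeR adjusted p from 0.0535 to 0.237), in DESeq2 (adjusted p = 0.098), with 10 tags asked of 1 library (0.052) or with the length and GC offset (0.056). Epithelial, erythroid and mesothelial lists held no tested gene. The erythroid list, led by *Hbb-bs*, summed to 90.7, 0 and 305 normalized CPM against 19.1, 2.03 and 19.1, highest in IL-11- replicate 3, the epithelial list, led by *Krt8*, to 3.82, 1.88 and 19.7 against 2.12, 3.05 and 6.68, and the mesothelial list, led by *Wt1*, to 13.4, 4.71 and 15.6 against 0, 0 and 4.77. *Etv1* and *Col3a1* were under 2-fold without IL-11- replicate 1, at log2 -0.93 and 0.83. *Pdpn* was under 2-fold without replicate 1 of either group, at 0.94 and 0.97. *Col3a1* and *Pdpn* were so too when libraries were scaled by size alone, and *Etv1* with the length and GC offset plus the replicate block, at -0.996.

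The laminin β chains went in opposite directions. *Lamb1* encodes the β1 chain, which is found in most laminins of the embryo and of adult mesenchyme. It had 648, 653 and 556 tags across the IL-11- libraries and 1101, 1192 and 1059 across the IL-11+ libraries. Every IL-11+ library was above every IL-11- library, and IL-11- replicate 3 was the lowest of the 6. The level averaged 563 ± 92.6 normalized CPM for IL-11- and 1129 ± 105 for IL-11+ fibroblasts (log2 fold change 1.003, SE 0.175, edgeR adjusted p = 0.000466). *Lamb1* thus stood at the fold-change threshold, with a 95% interval of the log2 fold change from 0.64 to 1.37. Its adjusted p was under 0.05 in all 23 alternatives, at most 0.00545, but the fold change exceeded 2 in 15 of them. The log2 fold change was 0.85 without IL-11- replicate 3, 0.99 without IL-11+ replicate 1, 0.96 without IL-11+ replicate 2, 0.92 when libraries were scaled by size alone and 0.99 with counts thinned to the smallest library.

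*Lamb2* encodes the β2 chain, known from the basement membranes of smooth muscle, vessels, the kidney glomerulus and the neuromuscular junction. It had 91, 66 and 117 tags across the IL-11- libraries and 31, 26 and 36 across the IL-11+ libraries. The groups did not overlap. The spread within IL-11+ fibroblasts was no wider than counting alone gives, with a coefficient of variation of 13.5% where counting gives 18%. Within IL-11- fibroblasts the spread was wider than counting gives, at 21.4% against 10.5%. The level averaged 81.7 ± 17.5 normalized CPM for IL-11- and 31.2 ± 4.22 for IL-11+ fibroblasts (log2 fold change -1.39, SE 0.227, edgeR adjusted p = 0.000253). *Lamb2* was called lower in all 23 alternatives, with log2 fold changes from -1.56 to -1.24. Pericyte and smooth muscle markers were lower in the same libraries, and their part in the value of *Lamb2* was not tested.

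Within a library, the ratio of tags of both β chains does not depend on depth or scaling, and the length of each transcript cancels when the ratio is compared between groups. The mix of cells in a library does not cancel, and the part of the pericyte and smooth muscle markers in this ratio was not tested. *Lamb2* made up 12.3%, 9.18% and 17.4% of the β1 and β2 tags across the IL-11- libraries, and 2.74%, 2.13% and 3.29% across the IL-11+ libraries. The groups were well apart: the exact 95% binomial interval of the lowest IL-11- library ran from 7.17% to 11.5% and that of the highest IL-11+ library from 2.31% to 4.52%. The log2 ratio of *Lamb2* to *Lamb1* was -2.79 ± 0.53 for IL-11- and -5.16 ± 0.32 for IL-11+ fibroblasts, a difference of -2.37 (two-sided exact permutation p = 0.1, the smallest that 3 libraries against 3 allow, and 0.2 after Benjamini-Hochberg adjustment over the 6 ratios computed). These intervals cover counting error only, since amplified tags are not independent molecules.

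**Figure D2:**
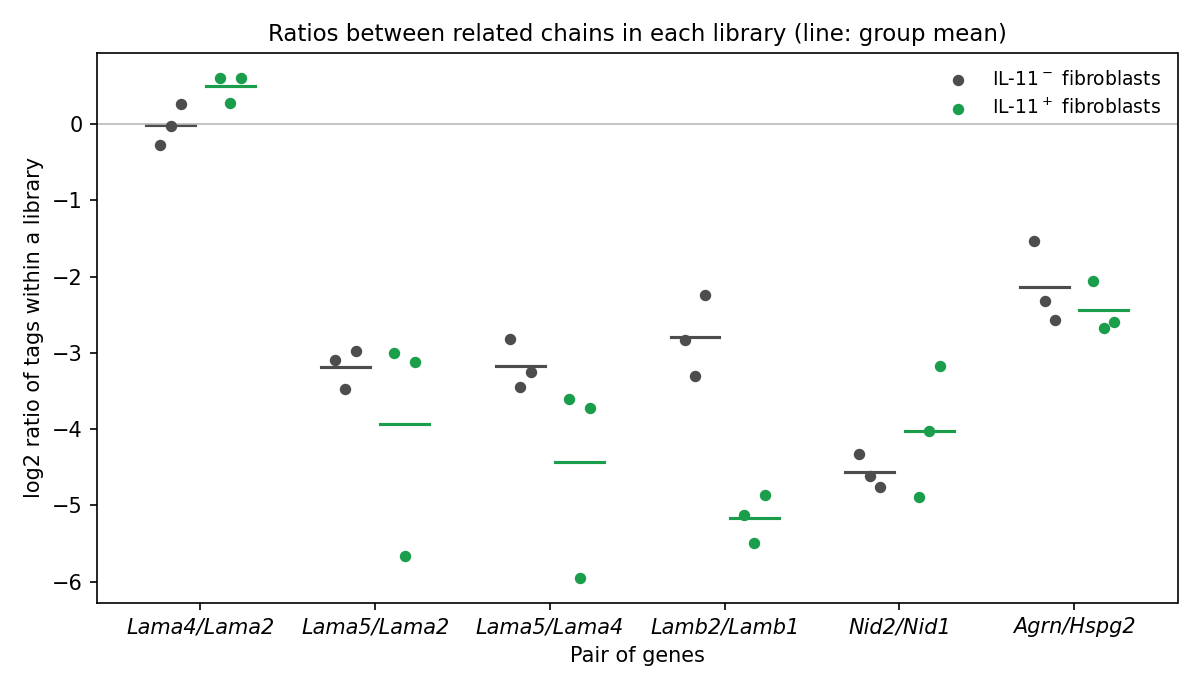
Log2 ratio of tags within each library for 6 pairs of related genes, with a dot for each of 3 libraries per group and a line at the group mean. The ratio of *Lamb2* to *Lamb1* lies between -3.30 and -2.24 in IL-11- and between -5.49 and -4.86 in IL-11+ fibroblasts, and the low dots of both *Lama5* ratios are IL-11+ replicate 2.

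The γ1 chain, encoded by *Lamc1*, is shared by most laminins. *Lamc1* had 310, 300 and 340 tags across the IL-11- libraries and 520, 450 and 426 across the IL-11+ libraries. The IL-11- libraries lay close together and all IL-11+ libraries were above them. The level averaged 286 ± 8.87 normalized CPM for IL-11- and 471 ± 73.5 for IL-11+ fibroblasts (log2 fold change 0.72, SE 0.167, edgeR adjusted p = 0.00517). The fold change was under 2 in all 23 alternatives, with log2 values from 0.60 to 0.89, and the adjusted p was under 0.05 in all of them, at most 0.0423.

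The α chain sets which receptors a laminin binds. *Lama4* encodes α4, a chain of vessel, fat and muscle laminins that lacks the N-terminal domain through which laminins polymerize. It had 321, 397 and 402 tags across the IL-11- libraries and 503, 462 and 521 across the IL-11+ libraries. The lowest IL-11+ library exceeded the highest IL-11- library. The level averaged 337 ± 34.3 normalized CPM for IL-11- and 499.7 ± 32.1 for IL-11+ fibroblasts (log2 fold change 0.57, SE 0.161, edgeR adjusted p = 0.0206). The adjusted p was under 0.05 in 18 of 23 alternatives and rose to 0.121 without IL-11- replicate 1, 0.0588 without IL-11- replicate 3 and 0.0578 without IL-11+ replicate 1.

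*Lama2* encodes α2, the chain of skeletal muscle and Schwann cell laminin, whose loss causes a congenital muscular dystrophy. It had 388, 403 and 334 tags across the IL-11- libraries and 331, 381 and 342 across the IL-11+ libraries. The groups overlapped. The level averaged 341 ± 58.4 normalized CPM for IL-11- and 355 ± 30.5 for IL-11+ fibroblasts (log2 fold change 0.06, SE 0.172, edgeR adjusted p = 0.88) with a 95% interval from -0.31 to 0.42, so a change of 2-fold in either direction lies outside the interval. The sign turned in some alternatives, at -0.10 without IL-11- replicate 3, -0.02 with library size only and -0.004 without IL-11+ replicate 2.

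The balance of both chains was also read within libraries. *Lama4* made up 45.3%, 49.6% and 54.6% of the *Lama4* and *Lama2* tags across the IL-11- libraries and 60.3%, 54.8% and 60.4% across the IL-11+ libraries. The groups did not overlap, but IL-11- replicate 3 and IL-11+ replicate 2 were nearly equal, within counting error. The log2 ratio of *Lama4* to *Lama2* was -0.01 ± 0.27 for IL-11- and 0.50 ± 0.19 for IL-11+ fibroblasts, a difference of 0.51 (two-sided exact permutation p = 0.1, adjusted over the 6 ratios 0.2).

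*Lama5* encodes α5, a chain of epithelial and vessel laminins that is known from the basement membrane of the crypt and surface epithelium. It had 45, 36 and 42 tags across the IL-11- libraries and 41, 7 and 39 across the IL-11+ libraries. IL-11+ replicate 2 was the lowest of the 6 libraries, with an exact 95% Poisson interval of 2.81 to 14.4 tags that covers counting error only. The level averaged 37.1 ± 5.07 normalized CPM for IL-11- and 29.3 ± 19.4 for IL-11+ fibroblasts (log2 fold change -0.34, SE 0.379, edgeR adjusted p = 0.624). Without IL-11+ replicate 2 the log2 fold change was 0.13, so the sign rested on that library. The coefficient of variation of *Lama5* within IL-11+ fibroblasts was 66.4%, where counting alone gives 18.6%. In the same library *Lama2* had 381 tags, against 331 and 342 in the other IL-11+ libraries, and *Lama4* had 462, against 503 and 521. The log2 ratio of *Lama5* to *Lama4* differed by -1.25 between groups (two-sided exact permutation p = 0.1, adjusted over the 6 ratios 0.2) and by -0.49 without that library. The ratio of *Lama5* to *Lama2* differed by -0.75 (two-sided exact permutation p = 0.6) and by 0.12 without it.

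Nidogens are small rod-shaped glycoproteins that bind the laminin γ1 chain and type IV collagen. *Nid1* had 391, 354 and 472 tags across the IL-11- libraries and 399, 432 and 318 across the IL-11+ libraries. The groups overlapped. The level averaged 365 ± 28 normalized CPM for IL-11- and 388 ± 74 for IL-11+ fibroblasts (log2 fold change 0.09, SE 0.175, edgeR adjusted p = 0.807) with a 95% interval from -0.28 to 0.46. The count of *Nid1* may be less certain than the others. Of the 50-nt windows near its 5′ ends, 39.8% also occur in GENCODE transcripts of *Gm2399*, and no window of the other 9 genes is shared. Tags were mapped to RefSeq RNA, and whether that set holds *Gm2399* was not tested.

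*Nid2* was counted with few tags, 19, 14 and 17 across the IL-11- libraries and 13, 26 and 35 across the IL-11+ libraries. After scaling, IL-11+ replicate 1 lay among the IL-11- libraries and the other IL-11+ libraries lay above them. The level averaged 15.1 ± 2.66 normalized CPM for IL-11- and 24.5 ± 9.93 for IL-11+ fibroblasts (log2 fold change 0.71, SE 0.344, edgeR adjusted p = 0.196) with a 95% interval from -0.01 to 1.43. At this depth neither no change nor a rise of 2-fold lies outside the interval, whereas a fall of 2-fold does. The log2 ratio of *Nid2* to *Nid1* differed by 0.54 between groups (two-sided exact permutation p = 0.4), by 0.11 without IL-11+ replicate 3 and by 0.97 without IL-11+ replicate 1.

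Perlecan and agrin are heparan sulfate proteoglycans that bind growth factors, and agrin also binds dystroglycan through laminin-like domains. *Hspg2* had 82, 82 and 121 tags across the IL-11- libraries and 64, 79 and 87 across the IL-11+ libraries. The groups overlapped. The level averaged 85 ± 12.5 normalized CPM for IL-11- and 77 ± 8.06 for IL-11+ fibroblasts (log2 fold change -0.14, SE 0.185, edgeR adjusted p = 0.682) with a 95% interval from -0.53 to 0.24, and the sign turned with the length and GC offset, at 0.11.

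*Agrn*, best known for clustering acetylcholine receptors at the neuromuscular junction, had 28, 16 and 20 tags across the IL-11- libraries and 15, 12 and 14 across the IL-11+ libraries. The groups overlapped slightly after scaling, and IL-11- replicate 1 was the highest library. The level averaged 19.4 ± 6.38 normalized CPM for IL-11- and 13.8 ± 1.9 for IL-11+ fibroblasts (log2 fold change -0.48, SE 0.343, edgeR adjusted p = 0.409). The log2 ratio of *Agrn* to *Hspg2* differed by -0.30 between groups (two-sided exact permutation p = 0.5), and without IL-11- replicate 1 it differed by 0.0048. Within same-numbered pairs the ratio was lower in every IL-11+ library, at -2.06, -2.67 and -2.59 against -1.53, -2.32 and -2.57. The sign-flip exact permutation p over pairs was 0.25, the smallest that 3 pairs allow.

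Over the 6 libraries, levels of *Lamb1* and *Lamc1* correlated with Pearson's r of 0.938, *Lamb1* and *Lama4* with 0.904 and *Lama4* and *Lamc1* with 0.913, whereas *Lamb1* and *Lamb2* gave -0.97. *Lama2* with *Lama4* gave 0.197 and *Nid1* with *Nid2* gave -0.275. These values describe log2 normalized CPM over 2 groups of 3 libraries and largely carry the difference between the groups. The tested genes most like *Lamb1*, with r from 0.994 to 0.997 over the 6 libraries, were *Saa3*, *Lama1*, *Ces1g*, *Cxcl16* and *Sarnp*. *Saa3* encodes an acute-phase serum amyloid, and *Lama1* encodes a further laminin α chain. Those most like *Lama4*, with r from 0.99 to 0.995, were *Capg*, *Psmd2*, *Btc*, *Pde4b* and *Wnt5a*. The actin-capping protein gene *Capg* differed by log2 0.77 between groups and *Wnt5a*, a secreted Wnt ligand, by 1.54.

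The other genes of the basement membrane were taken from 7 lists with 70 tested genes, of which 11 were called higher and 17 lower. The filter partly sets these counts, since 9 of the 17 lower genes reached 10 tags only in the 3 IL-11- libraries and 1 of the 11 higher genes only in the 3 IL-11+ libraries (199 of 595 and 27 of 321 among all tested genes). Without any 1 IL-11- library 7 or 8 were lower, and 16 or 17 on the genes that pass with 6 libraries. Among the other laminin chains, 1 of 3 tested was higher and 1 lower. *Lama1*, which encodes the α1 chain of early embryonic basement membranes, had 31, 28 and 16 tags across the IL-11- libraries and 83, 89 and 71 across the IL-11+ libraries, without overlap (log2 fold change 1.84, SE 0.262, edgeR adjusted p = 6.13e-05). *Lamc3*, a γ chain that passed the filter through the IL-11- libraries alone, had 18, 21 and 25 tags against 1, 5 and 7 (log2 fold change -2.11, SE 0.459, edgeR adjusted p = 0.00317), and *Lama3* had at most 3 tags in a library.

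Basement membrane collagens were higher for 4 of 7 tested genes, of which *Col7a1* passed the filter through the IL-11+ libraries alone, and lower for none. *Col4a1*, which with *Col4a2* encodes the chains of the most widespread type IV collagen, had 1217, 1138 and 1021 tags across the IL-11- libraries and 2858, 2478 and 1493 across the IL-11+ libraries. The groups did not overlap: *Col4a1* was 2.27-fold higher (edgeR adjusted p = 0.0013) and *Col4a2* 2.23-fold (edgeR adjusted p = 0.000476), and without IL-11+ replicate 1 both were under 2-fold, at log2 0.96 and 0.98. *Col18a1*, the source of endostatin, rose by log2 1.98, and *Col7a1*, of anchoring fibrils, rose from 3, 2 and 1 tags to 11, 16 and 10, while *Col15a1*, *Col4a5* and *Col4a6* had log2 fold changes of 0.60, -0.05 and -0.23 without a call and *Col4a4* had at most 8 tags in a library.

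Of the receptors of laminin and agrin, 1 of 14 tested was higher and 4 were lower, 3 of these 4 (*Bcam*, *Itga7* and *Itga8*) with 10 tags only in IL-11- libraries. *Sdc1*, a cell-surface heparan sulfate proteoglycan, rose by log2 2.45, from 216, 217 and 82 tags to 1008, 971 and 583. *Itga7*, an integrin α chain of muscle, differed by log2 -2.35, *Bcam*, which binds laminin α5, by -3.50 and *Lrp4*, the agrin receptor, by -1.24, while *Itga8* had 11, 29 and 38 tags against 2, 1 and 1. The call of *Lrp4* was lost without IL-11- replicate 2, IL-11+ replicate 1 or IL-11+ replicate 2 (edgeR adjusted p = 0.072, 0.06 and 0.062) and in DESeq2 (adjusted p = 0.051), and *Itga2* was also called higher with the replicate number as a block (edgeR adjusted p = 0.048, against 0.0626 without it). The abundant *Sdc4*, *Itgb1*, *Sdc2* and *Itga1* were not called, with log2 fold changes of 0.64, -0.09, 0.01 and 0.95, and *Dag1*, which encodes dystroglycan, averaged 170 ± 14.7 normalized CPM for IL-11- and 173 ± 19.1 for IL-11+ fibroblasts, with a log2 fold change of 0.02.

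The dystrophin-glycoprotein complex links dystroglycan to actin, and 4 of its 9 tested genes were lower, *Dtna* with 10 tags only in IL-11- libraries, and none higher. *Dmd*, which encodes dystrophin, had 99, 82 and 96 tags across the IL-11- libraries and 8, 9 and 18 across the IL-11+ libraries (log2 fold change -2.82, SE 0.273, edgeR adjusted p = 7.68e-07), and *Dtna*, *Sgcd* and *Utrn* differed by log2 -3.43, -1.32 and -1.13, *Utrn* being under 2-fold with the length and GC offset, at -0.91; *Sntb2*, *Sgce*, *Sgcb* and *Sspn* had log2 fold changes of 0.09, -0.58, 0.42 and -0.69 without a call. Of the enzymes that glycosylate dystroglycan so that it binds laminin, none of 5 tested had an edgeR adjusted p under 0.05, with log2 fold changes of -0.28 and -0.47 for *B4gat1* and *Pomt2*.

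Other proteins of the basement membrane were higher for 2 of 16 tested genes and lower for 7, of which 4 (*Npnt*, *Ntn4*, *Tinagl1* and *Vwa1*) passed the filter through the IL-11- libraries alone. *Smoc1* and *Papln* rose by log2 1.87 and 1.85, whereas *Hmcn2*, *Vwa1*, *Ntn4*, *Smoc2* and *Ntn1* differed by -3.06, -2.78, -2.27, -1.54 and -1.34; *Tinagl1* had 39, 40 and 94 tags against 0, 0 and 3, and *Npnt* had 23, 11 and 22 against 1, 1 and 2, while the more abundant *Sparc*, *Fbln1*, *Fbln2* and *Efemp1* were not called, at log2 0.69, -0.71, 0.17 and -0.46. Genes of assembly and breakdown were higher for 3 of 16 tested and lower for 1. *Mmp2*, a gelatinase that cleaves type IV collagen, rose by log2 1.36 (edgeR adjusted p = 2.33e-05), *Creb3l1* by 1.12 and *P3h1* by 1.003, and *P3h2* differed by -1.40, while *Mmp14*, *Adamts1*, *Serpinh1* and *Plod2* were not called, at 0.91, 0.07, 0.67 and 0.29. *P3h1* lost its call with library size only and without IL-11- replicate 1 or 2 or IL-11+ replicate 2 or 3, at log2 0.86 to 0.98, and *Creb3l1* without IL-11- replicate 3, at 0.89. The part of the pericyte and smooth muscle markers in the values of these lists was not tested.

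**Figure D3:**
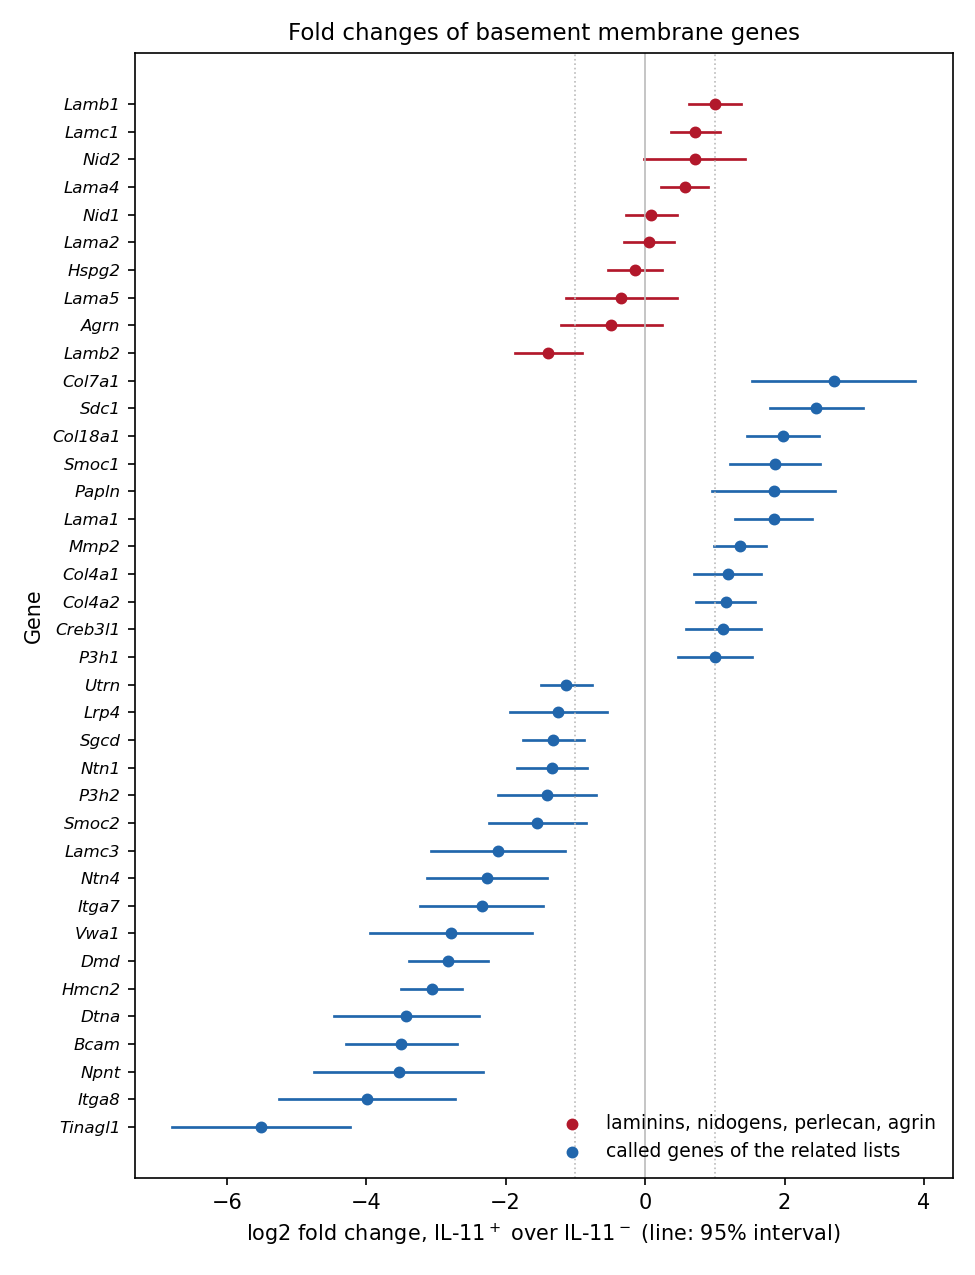
Log2 fold change of IL-11+ over IL-11- fibroblasts for the 10 genes and for the called genes of the 7 related lists, with lines for the 95% interval of each and dotted lines at a fold change of 2 in either direction. Intervals of *Lamb1*, *Lamc1* and *Lama4* lie above 0 and that of *Lamb2* lies below 0, from -1.86 to -0.91. Fitted values of *Tinagl1*, *Itga8*, *Npnt* and *Col7a1* rest on at most 3 tags per library in 1 group.

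By the annotation (GRCm38), the 10 genes lie on 8 chromosomes, with *Lama2* and *Lama4* both on chromosome 10 and *Hspg2* and *Agrn* both on chromosome 4. *Lamb1* spans chr12:31265234-31329644 on the plus strand with 33 exons in its longest coding transcript, and *Lamb2* spans chr9:108479736-108490530 on the plus strand, also with 33 exons. Their longest coding transcripts are alike in length, 5784 and 5629 nt, while those of all 10 genes run from 4876 nt (*Nid2*) to 14187 nt (*Hspg2*). Over the tested genes with an annotated transcript length, the median log2 fold change went from 0.03 in the fifth with the shortest transcripts to -0.08 in the fifth with the longest. A smooth curve of length and GC content put the 10 genes between -0.25 (*Hspg2*) and -0.14 (*Lamb2*), and after its removal *Lamb1* stood at 1.15.

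Sequence before the start was compared for both β chains because they moved in opposite directions. RefSeq promoter sequences (GRCm38.p6) were matched for 7 of the 10 genes, and *Lama4*, *Lamc1* and *Nid2* had no entry. In the 250 bases before the RefSeq start, 5 short motifs were searched on both strands. The GC box, GGGCGG, occurs in 32.7% of 32851 promoters. *Lamb1* held 2 matches of it, and *Agrn*, *Hspg2*, *Lama5* and *Nid1* held 12, 5, 4 and 1 (for *Agrn*, at the more upstream of 2 starts), while *Lamb2* and *Lama2* held none. The STAT motif, TTCNNNGAA, occurs in 7.02% of promoters, and *Lamb2* held the 1 match among the 7 genes. The AP-1 motif, TGANTCA, occurs in 6.75% of promoters and in none of the 7 genes. The CRE, TGACGTCA, which occurs in 1.55% of promoters, had no match in them. The TATA box, TATAAA, found in 12.4% of promoters, had none either. A match describes letters and is not a bound site. The stretches below lie before both the RefSeq and the GENCODE start, at chr12:31265043-31265233 for *Lamb1* (plus strand, 63.9% GC) and chr9:108479612-108479735 for *Lamb2* (plus strand, 37.9% GC), with motif matches in capitals.
Lamb1: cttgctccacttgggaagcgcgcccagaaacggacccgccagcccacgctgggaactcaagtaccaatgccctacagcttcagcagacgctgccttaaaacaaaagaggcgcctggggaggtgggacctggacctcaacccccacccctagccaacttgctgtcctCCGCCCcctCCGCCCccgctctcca
Lamb2: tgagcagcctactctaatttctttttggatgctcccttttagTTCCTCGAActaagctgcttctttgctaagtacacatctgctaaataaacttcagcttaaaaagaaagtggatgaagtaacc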

How the data were processed

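The authors trimmed the reads with Cutadapt 1.18 and mapped them to mm10 RefSeq RNA in one orientation with Bowtie2 2.2.5. The deposited values are counts of tags per gene symbol, without normalization; how tags that map to several genes were treated is not given in the sources used here.

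A gene was tested if 3 or more of the 6 libraries had 10 tags or more, in R 4.3.3 with edgeR 4.0.16 (TMM, glmQLFit and glmQLFTest). SE is the log2 fold change divided by the square root of F, and 95% intervals use the t distribution with the degrees of freedom of the fit. Library sizes were taken over the tested genes. A first fit took them over all symbols, with 322 genes higher and 588 lower; the change was made after its results were seen, to follow an earlier processing of these counts, and the first fit is kept as an alternative. The fit was tested on simulated data. Ratios were computed with 0.5 tags added to each count.

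Replicate numbers come from the sample labels, and the methods name 3 mice. Same-numbered libraries deviated together from their group means over 5064 genes that averaged 30 tags or more (r = 0.23, 0.21 and 0.27), so they were taken as pairs in fits with a block.

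The 10 genes and the gene lists were chosen with earlier results of these data known. Named are the 10 genes, called members of each list with up to 4 more that have the most tags, *Il11*, and the 5 genes most like *Lamb1* and *Lama4*. *Itga2*, *Dag1*, *Pdgfra*, *Epcam*, *Pecam1*, *Ptprc*, *Sox10*, *S100b* and *Gm2399* were named after their values were seen. Of marker lists other than those of fibroblasts, pericytes and smooth muscle, only the called genes and the one with the most tags are named, a cut made after the values were seen. A few genes that the rule names are not reported. Annotation is from GENCODE vM21, which holds 85% of the symbols. Of the 93 listed related genes, 91 were matched.

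Alternatives were RLE, iterative TMM with 3 iterations, library size only, DESeq2 1.42.0, 2 other filters, the replicate block and thinned counts. Further ones were length and GC content as an offset (loess, span 0.5), that offset together with the replicate block, and no fold-change threshold. The last were 0 tags added to ratios and each library left out. Totals over all symbols, and each library left out on the genes that pass with 6 libraries, were added after seeing the data.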

Additional observations from a re-analysis of the deposited data

How the results depend on the processing

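The direction of *Lamb1*, *Lamb2*, *Lamc1* and *Lama4* held in all 23 alternatives. The number of the 10 genes called higher was 1 and became 0 with library size only, 0 with thinned counts and 3 with no fold-change threshold, and ranged from 0 to 1 when 1 library was left out; *Lamb1* lies at the threshold. With the replicate block, 1 of the 10 genes was higher and 1 lower, and 337 and 648 of all tested genes. Apart from *Itga2*, the block changed no call of a named gene. Its sign-flip exact permutation test of the ratios cannot go below 0.25. With no fold-change threshold, 638 genes were higher in all and 18 in the 7 related lists. When 1 library was left out, 341 to 580 genes were lower in all, and 7 to 19 in the related lists. Without IL-11- replicate 1, 200 of the 595 lower genes no longer had enough tags to be tested, and on the genes that pass with 6 libraries 483 were lower.

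When 1 library was left out, the difference between groups ranged from -1.21 to 0.12 for the ratio of *Lama5* to *Lama2*. For the ratio of *Agrn* to *Hspg2* the difference ranged from -0.51 to 0.0048. The sign turned without IL-11+ replicate 2 for the former and without IL-11- replicate 1 for the latter, and the cause was not tested. Leaving out 1 library breaks a same-numbered pair. Within every such pair the ratio of *Agrn* to *Hspg2* was lower in the IL-11+ library. In replicate 3 both libraries were nearly equal, at log2 -2.59 for IL-11+ and -2.57 for IL-11-. Scaling by library size only moved the median log2 fold change of all genes to -0.095, and other scalings moved it less. *Nid2* and *Agrn* were counted with 12 to 35 tags per library, for which counting alone gives a coefficient of variation of 20.1% to 27.1%, and this limits what 3 libraries can show.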
